A study of Rattus norvegicus with 6 samples.

Results

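Cryab encodes alpha B crystallin, and its messenger RNA (mRNA) was followed here in a rat model of cataract. It is 1 gene of the 22263 listed in the mRNA count table, read from the row ENSRNOG00000010524. The table names genes by Ensembl identifier alone, and this identifier was assigned to Cryab from outside the table, so the pairing could not be checked in the data used here.

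Alpha B crystallin is a small heat shock protein. Such proteins hold unfolding proteins in solution without using ATP, and they work as large assemblies. In the lens, alpha B crystallin forms mixed assemblies with alpha A crystallin and keeps the tightly packed crystallins soluble. Fibre cells lose their organelles and cannot replace their proteins, so this chaperone store is made early and has to last. Cryab is also expressed outside the lens, in heart and skeletal muscle and in glia, and variants of the human gene are known causes of cataract and of muscle disease.

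Lens capsules of Sprague Dawley rat pups were compared between 2 groups of 3 animals. The Na2SeO3 group received sodium selenite under the skin of the neck at 20 µmol/kg on days 3, 5 and 7, and the control group received saline on the same days. The methods of the study describe pups of 8 days of age and removal of the lens on day 15 of the experiment, which is not an age. They do not say whether the injection days count age, but ages of 3, 5 and 7 days would come before the stated 8 days. No genetic alteration was given for either group, and the sex of the pups and the sequencing batch were not given, so neither could be separated from the treatment.

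The mRNA table held between 11874219 and 16120616 counts per sample. Replicates of one group differed by more than sampling noise, at 2.19 to 5.36 chi-square units per gene, where 1 would be counting noise alone, and pairs across groups stood at 75.3 to 84.9. The capsule carries the lens epithelium and may carry adhering fibre cells or tissue from around the lens. Because no other row could be tied to a gene symbol, the labelled tissue could not be checked against marker genes, and levels of muscle, glial or retinal markers cannot be given beside Cryab.

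Cryab was among the most abundant mRNAs of the control capsule and was strongly lower after Na2SeO3. Control replicates 1, 2 and 3 had 38254, 28890 and 37705 Cryab counts, and Na2SeO3 replicates 1, 2 and 3 had 4459, 4640 and 4300. The groups were far apart, and the library totals differed much less than these counts.

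On the scale of counts per 1000000 of the column total (CPM), the control samples stood at 2597, 2433 and 2339 CPM. The Na2SeO3 samples stood at 327.0, 343.5 and 337.4 CPM. Every control sample was thus above every Na2SeO3 sample, and the lowest control value was 6.81 times the highest Na2SeO3 value. TMM-scaled CPM ranges that did not overlap, with the Na2SeO3 group lower, were found for 27.2% of all genes tested, so separation of the groups alone does not set Cryab apart.

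The mean of the control group was 2456 ± 130.4 CPM, and that of the Na2SeO3 group was 336 ± 8.34 CPM (SD, n = 3). Put another way, 1 in 408 mRNA counts of the control group came from Cryab, against 1 in 2977 in the Na2SeO3 group. The difference in mean CPM was -2120, and a two-sided exact permutation test over the samples gave p = 0.1, which is the smallest value that 3 samples against 3 allow.

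**Figure D1:**
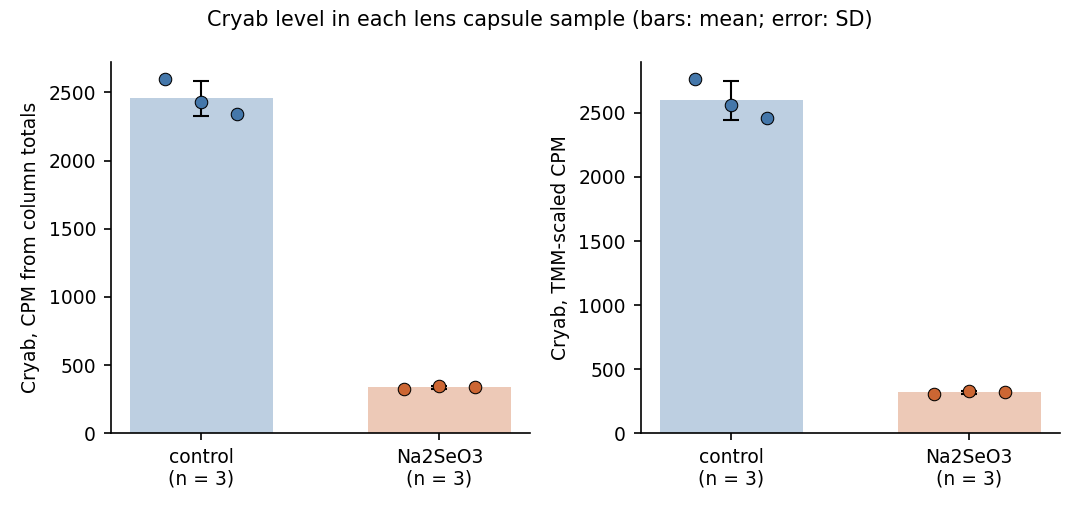
Cryab level per sample as CPM from column totals (left axis) and as CPM with TMM-scaled library sizes (right axis); points are samples, bars are group means and error bars are SD (n = 3). The 3 Na2SeO3 samples sit between 327.0 and 343.5 CPM on the left and between 307.3 and 326.5 on the right, below all 3 control samples on both scales.

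The spread between replicates was small in both groups. The coefficient of variation of Cryab CPM was 5.31% among controls and 2.48% among Na2SeO3 samples, whereas counting error alone would give 0.538% and 1.5%. The control samples therefore differed beyond counting error, by an amount far below the difference between the groups. Spread between animals and spread from library preparation cannot be told apart here. Control replicate 1 was the highest of its group on both scales. Cryab took 0.260% of the counts of that sample, with an exact 95% binomial interval of 0.257% to 0.262%. In Na2SeO3 replicate 1, the lowest of its group, it took 0.0327% (0.0318% to 0.0337%). These intervals cover counting error only.

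Differential expression was then tested over all 14906 genes that passed the filter on low counts. The log2 fold change of Cryab between the Na2SeO3 and the control group was -3.03 ± 0.04 (approximate SE), with an approximate 95% interval of -3.12 to -2.94. Cryab mRNA was 8.16-fold lower (7.66 to 8.69), or at 12.3% of the control level, with an adjusted p of 1.6e-28 from the edgeR quasi-likelihood test. Cryab was called down-regulated by the criteria of the study, which ask for an adjusted p under 0.05 together with a log2 fold change beyond 1 in size. In the fit made here 5.23% of all genes tested were called down-regulated, and the study itself reported fewer called genes. The study lists Cryab as a hub chosen among the genes it called on these samples, so the call of Cryab is not independent of that choice.

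These values are changes in the share of mRNA counts. In bulk tissue, fewer cells of a type and less Cryab RNA per cell cannot be told apart. The RefSeq annotation of the rat assembly GRCr8 places Hspb2, another small heat shock protein gene, in overlap with Cryab. Whether counting used the strand was not stated, so reads of the shared stretch cannot be assigned to one of these genes with certainty.

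The size of the fall was set against all other genes. A log2 fold change below that of Cryab was found for 59 other genes, each of them also called down-regulated, and the median of all 14906 genes was 0.01. The median of the 779 down-regulated genes was -1.46, and 376 genes were up-regulated. Scaling by column totals alone gave 610 and 588 genes in these directions and a log2 fold change of -2.87 for Cryab. Most of the 59 genes were rare, with a median of 3.64 CPM over the 6 samples. Of the 2409 genes with a mean of at least 100 CPM, 8 had a lower log2 fold change than Cryab, and of the 189 genes with at least 500 CPM, 6 did.

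**Figure D2:**
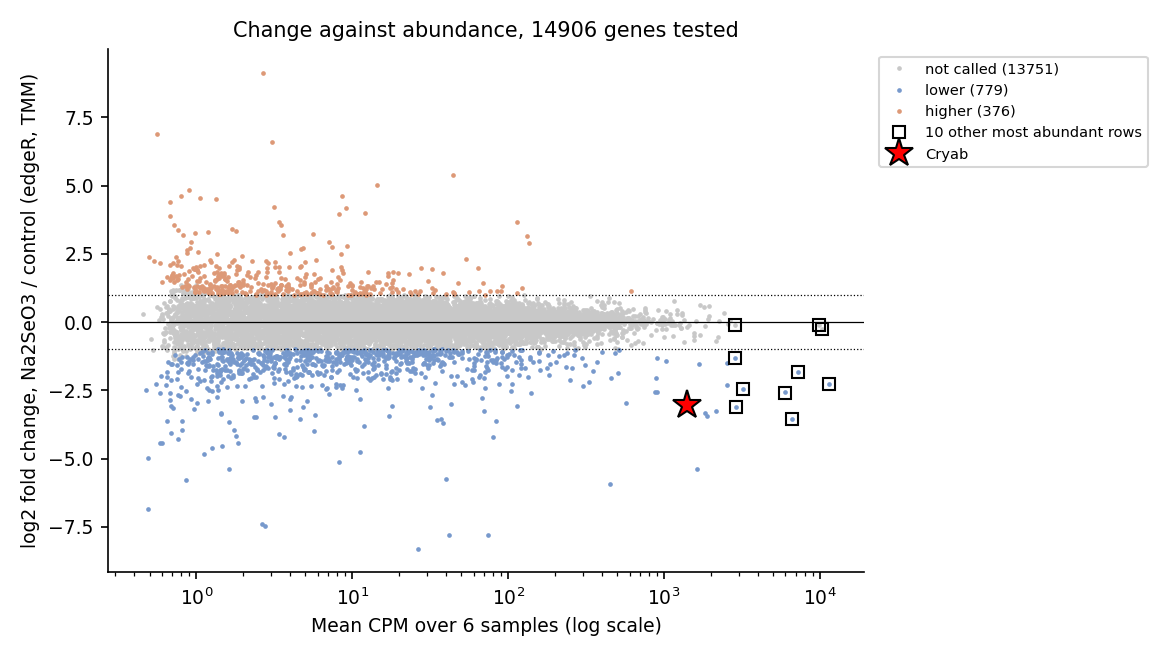
log2 fold change of Na2SeO3 over control (vertical axis, edgeR with TMM factors) against mean CPM of the 6 samples (horizontal log axis), 1 point per gene tested. Blue and orange points were called lower (779) and higher (376), squares mark the 10 other most abundant rows and the star marks Cryab at -3.03, in the sparsely filled lower right where abundant mRNAs fell.

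The abundance rank of Cryab was read in each sample, ordering all rows by CPM. Ranks follow the number of reads, which also grows with transcript length, so they do not order the genes by molecules. Cryab ranked 19, 21 and 21 in control replicates 1, 2 and 3. In Na2SeO3 replicates 1, 2 and 3 it ranked 436, 395 and 415. The ranks of the groups did not overlap, and the mean rank went from 20.3 to 415.3.

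The same 17 rows stood ahead of Cryab in all 3 control samples, where 18 to 20 rows stood ahead in each. Of these 17, 13 were called down-regulated, against 5.23% of all genes tested. The 17 were picked for high control values, which itself favours rows that read lower after Na2SeO3. The same 389 rows stood ahead of Cryab in all 3 Na2SeO3 samples. Only 14 of these had also been ahead in all controls, and the other 375 had a median log2 fold change of 0.05. Among the 375 rows, 1 was called up-regulated and 5 down-regulated, where 2.52% and 5.23% of all genes tested were. Cryab thus passed below a large set of mRNAs that mostly were not called. That set was picked by rank in these same samples, and most genes tested were not called. The counts therefore only describe the shift in rank.

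**Figure D3:**
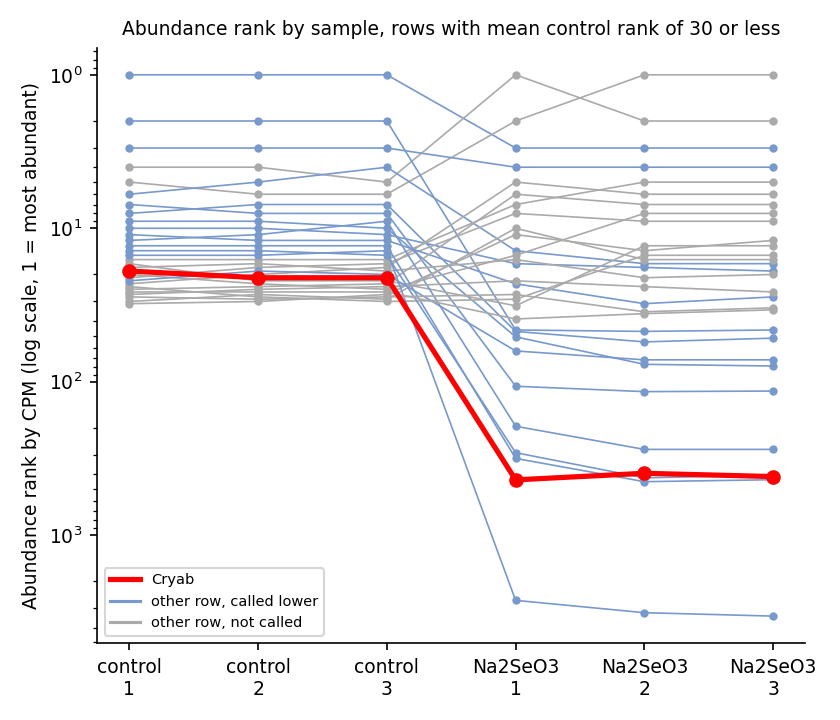
Abundance rank by CPM (vertical log axis, 1 at the top) in each of the 6 samples for the 30 rows with a mean control rank of 30 or less; each line joins the values of 1 row, and replicates have no order. Cryab (red) goes from ranks 19 to 21 in the controls to ranks 395 to 436 in the Na2SeO3 samples. The other 14 rows called lower (blue) and 15 rows not called (grey) spread out, and 1 row ends below Cryab in all 3 Na2SeO3 samples. Of all genes tested, 5.23% were called lower. The rows shown were picked by control rank, which itself favours rows that read lower after Na2SeO3.

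Cryab was next compared with the other most abundant rows, ranked by mean CPM over the 6 samples, where it held rank 37 itself. Of the 10 other most abundant rows, 7 were called down-regulated and none was called up-regulated, against 5.23% and 2.52% of all genes tested. Their median log2 fold change was -2.05, in a range of -3.56 to -0.09. At an adjusted p under 0.05 without the fold-change threshold, 9 of these 10 were lower and 0 higher, against 23.7% and 23.2% of all genes tested. Cryab lay toward the strong end of this range, since 2 of the 10 fell further. Of the 50 other most abundant rows, 14 were called down-regulated and 0 up-regulated. Their median was -0.19, and 6 had a lower log2 fold change than Cryab. When the 50 rows were ranked by control CPM instead, 19 were called down-regulated, against 5.23% of all genes tested, and the median was -0.50. Ranking by control level itself favours rows that read lower after Na2SeO3.

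The most abundant row, ENSRNOG00000047175, shows how unequal these falls were. It had 18918, 18708 and 18405 CPM in the control samples and 4781, 4028 and 4081 CPM in the Na2SeO3 samples. Its log2 fold change was -2.28 ± 0.04 (adjusted p = 5.47e-26, edgeR), and it went from rank 1 in each control sample to rank 3 in each Na2SeO3 sample. The row ENSRNOG00000032219 fell less, with a log2 fold change of -1.82 ± 0.04 (adjusted p = 2.11e-25, edgeR), from 11026 ± 491 CPM to 3493 ± 67.4 CPM (SD, n = 3). Cryab therefore lost a larger part of its level than either of these more abundant mRNAs, and it started from a lower one.

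Some abundant mRNAs moved the other way. Of the 50 other most abundant rows, 11 were higher and 30 lower at an adjusted p under 0.05 without the fold-change threshold. By that rule 23.2% of all genes tested were higher and 23.7% lower, so the 11 that rose were near the background share. Of the 50, 0 were called up-regulated, and the highest log2 fold change among them was 0.77. The first 2 that rose, in order of abundance, are given here. The row ENSRNOG00000018185 went from 1997 ± 39.1 CPM among controls to 2823 ± 70.1 CPM among Na2SeO3 samples (SD, n = 3), with a log2 fold change of 0.34 ± 0.03 (adjusted p = 3.23e-09, edgeR). The row ENSRNOG00000016638 went from 2418 ± 81.7 to 2876 ± 75.0 CPM, with a log2 fold change of 0.09 ± 0.04 (adjusted p = 0.0333, edgeR). These fold changes use TMM factors whereas the CPM values use column totals, and on column totals they were 0.50 and 0.25. Both stood near Cryab in the control samples, at ranks 25, 24 and 23 and at ranks 23, 20 and 18, and both stood at ranks 5 to 7 in the Na2SeO3 samples.

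Together the 50 other most abundant rows held 16.4% ± 0.24 of all counts among controls and 9.77% ± 0.30 among Na2SeO3 samples (SD, n = 3). Cryab added 0.246% ± 0.013 and 0.0336% ± 0.00083, in the same order. Its share fell by 0.212 percentage points, or 3.09% of the joint fall of Cryab and these rows.

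Ratios of counts within one sample do not depend on how libraries are scaled against each other, and they were used to ask whether Cryab moved like each abundant row. The log2 ratio of Cryab to each of the 10 other most abundant rows was compared between the groups, which made 10 comparisons. The ratio was lower in the Na2SeO3 group for 8 rows and higher for 2, and the groups did not overlap in any of the 10. How often ratios to other rows separate the groups was not computed, so these counts describe the 10 rows only. Among the 14906 genes tested, only 59 others had a log2 fold change below that of Cryab. A lower ratio would therefore be usual against any row. Each exact permutation test (two-sided) gave p = 0.1, the smallest possible, and 0.1 after Benjamini-Hochberg adjustment, so no ratio could pass 0.05 in this design.

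Against the 3 rows that were not called, at abundance ranks 2, 3 and 10, the log2 ratio of Cryab differed by -2.79, -2.93 and -2.92 between the groups. Against the called rows at ranks 1, 4, 6, 7 and 9 it differed by -0.74, -1.21, -0.45, -0.57 and -1.71, so Cryab lost ground to these falling mRNAs too. The row at rank 5 fell more than Cryab, and the ratio to it was higher by 0.54 in the Na2SeO3 group. For the row at rank 8 the log2 ratio was -1.07 ± 0.03 among controls and -0.98 ± 0.05 among Na2SeO3 samples (SD, n = 3). This difference of 0.09 was close to the spread between replicates and the smallest of the 10.

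**Figure D4:**
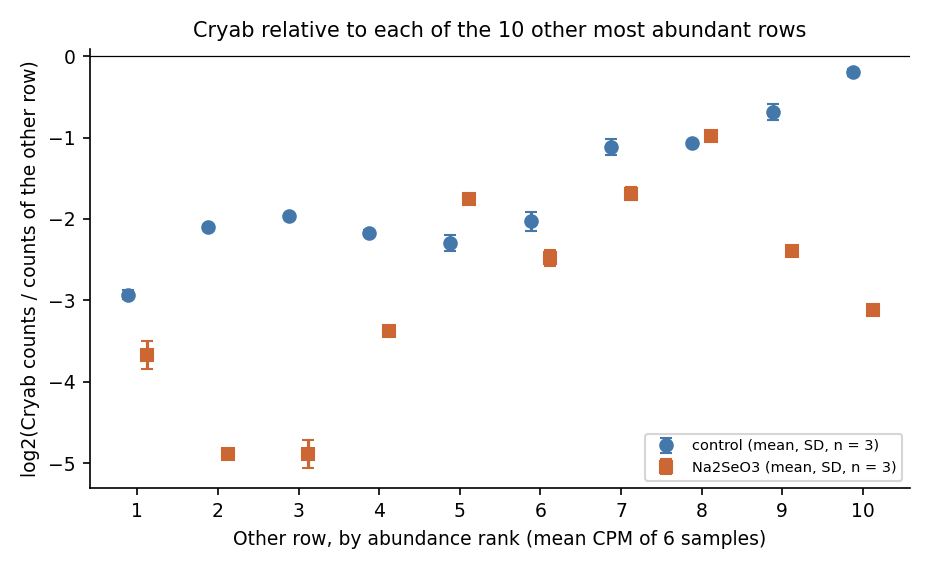
log2 of Cryab counts over the counts of each of the 10 other most abundant rows (vertical axis), by the abundance rank of the other row (horizontal axis); circles are control and squares Na2SeO3 means, with SD (n = 3, some bars are smaller than the symbol). The groups lie furthest apart for ranks 2, 3 and 10, where the other row was not called, and closest for rank 8, where the difference was 0.09.

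The genes with the pattern most like that of Cryab were looked for among the 8586 other genes tested with a mean of at least 20 CPM. Likeness was the root mean square difference over the 6 samples between log2 CPM values centred on each gene's own mean, a description that mostly follows the size of the group difference. The 5 nearest genes lay 0.044 to 0.128 log2 units from Cryab, and the median over all 8586 was 1.51. Their log2 fold changes ran from -3.12 to -2.98, near that of Cryab because the genes were chosen for likeness over these same samples. The nearest gene had a mean of 992 CPM among controls and 141 CPM among Na2SeO3 samples, and the second nearest was the row at abundance rank 8, with 5149 and 660 CPM. The other 3 were much rarer, with control means of 201.9, 75.4 and 55.4 CPM. A log2 fold change within 0.25 of that of Cryab was found for 7 of the 8586 genes, and 250 of them were called down-regulated.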

How the data were processed

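Lens capsule RNA of 6 rats, 3 per group, was sequenced as 150 bp paired-end reads. Per the study's methods, reads were trimmed with Cutadapt and Fqtrim, assessed with FastQC and aligned with HISAT2 to an Ensembl rat reference. The build, annotation release, counter and strandedness are not given in the sources used here. The authors deposited whole-number read counts per Ensembl gene, 1 column per sample, which were used as raw counts. Sample titles tied each of the columns to a sample, and 0 columns were left over. The lncRNA and circRNA tables were not used here, since the first has no row for this gene and the second is keyed by running numbers.

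CPM and ranks were computed from column totals over all 22263 rows, of which 3980 had no count. Genes with few counts were dropped by filterByExpr, TMM factors set the library sizes, and edgeR 4.0.16 (R 4.3.3) fitted glmQLFit and glmQLFTest without covariates, with Benjamini-Hochberg adjustment over all genes tested. The SE was approximated as the log2 fold change divided by the square root of F. The fit was tested on simulated data. Alternatives included DESeq2 1.42.0.

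Cryab and all lists were chosen with earlier results of these data known. Of the mRNA rows, 0 matched a symbol in the RefSeq table, so the 13 gene lists and marker lists drawn up by symbol, and the ratios to other crystallins, gave no value. The naming rule then allowed at most 2 identifiers that rose and 2 that fell, taken in order of abundance, beside Cryab. Those that fell were taken among rows called down-regulated, those that rose by an adjusted p under 0.05 alone. The row at abundance rank 2 was thus passed over, with a log2 fold change of -0.24 (adjusted p = 2.44e-06, edgeR). The other rows are given by rank. Same-numbered samples are different animals. The edgeR p-values set the group difference against the spread between these samples, with information on spread shared across genes. The methods of the study describe 3 rats per group.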

Additional observations from a re-analysis of the deposited data

How the results depend on the processing

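Cryab stayed past both thresholds in each of 16 alternatives, namely RLE, upper-quartile, no and top-50-free scaling, 2 other filters, DESeq2, the likelihood ratio test, the replicate block, thinning to the smallest total and leaving out each of the 6 samples. Its log2 fold change lay between -3.07 and -2.87, and between -3.07 and -2.98 without 1 sample each. The value of -2.87 came from column totals without factors, which moved the median of all genes to 0.16. Relative to the median of all genes it was -3.03, as in the main analysis. The count of 1155 called genes lay between 1051 and 1326, and between 1158 and 1187 without 1 sample each.

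With the replicate number as a block the log2 fold change of Cryab was -3.03 (adjusted p = 6.07e-19, edgeR) and 1142 genes were called. Deviations of same-numbered samples correlated at -0.015, -0.005 and 0.005, so no pairing by number was seen. With 3 samples per group, these correlations could not exclude that the numbers paired the samples. The difference in CPM was -2279 with TMM scaling and -2567 without the 50 other most abundant rows in the total, and -2179 to -2050 without 1 sample each. Ranked by control CPM, which itself favours rows that read lower after Na2SeO3, 6 of the 50 other most abundant rows again fell further than Cryab. Of the 20, 6 rather than 3 did. The count of 8 lower ratios was 8 without any 1 sample. Ratios to other crystallins and the gene lists were not run, because rows could not be named. Depth was not limiting for a gene with at least 4300 counts per sample.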
